A study of Rattus norvegicus with 14 samples.

Results

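Transcripts of protein and lipid kinase signalling genes were followed in rat liver across 3 diets that differed in magnesium. A probe set, the group of short oligonucleotides by which an Affymetrix array reads 1 transcript, belonged to the set when the platform annotation gave it 1 gene symbol beginning with Mapk, Map2k, Map3k, Prka, Prkc, Camk, Pik3, Jak, Akt with a digit, Rps6k, Csnk or Gsk3. The rule uses gene symbols only, though it was set with earlier results of these data known. It took in 70 of the 4736 genes named in this way, with 124 of 7006 probe sets. Because it goes by name, it holds catalytic kinases together with their regulatory subunits (Prkar1a), scaffolds (Mapk8ip1) and inhibitors (Pik3ip1).

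Each target was made from about 5 µg of total RNA from the left lateral lobe of a liver taken at necropsy from Rattus norvegicus. The labels name the diets as Mg++ deficient (4 arrays, numbered 11 to 14), MG++ supplemented (5 arrays, 1 to 5) and standard diet (5 arrays, 6 to 10). Strain, sex, age, the amount of magnesium fed and the time on the diet are not stated in them, and neither is any other treatment. Whether every array came from its own animal is also not stated. The p-values therefore set diet differences against the spread between these samples within diets, which may in part be technical.

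Protein kinases move the end phosphate of ATP, which they bind together with magnesium ions, onto serine, threonine or tyrosine residues of other proteins, and lipid kinases move it onto phosphoinositides. In hepatocytes protein kinase A carries the glucagon signal through cyclic AMP, the PI3-kinase, Akt and GSK3 chain carries the insulin signal to glycogen synthesis, AMP-activated kinase responds to low energy, MAP kinase cascades relay growth factor and stress signals, and Janus kinases serve cytokine and growth hormone receptors. The activity of these enzymes is set largely by phosphorylation and second messengers, so a transcript level is not a measure of kinase activity.

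The labelled tissue carried its own markers: 7 of 7 hepatocyte genes were measured, and albumin (Alb) read 7530 to 9258 units on all arrays, a unit being the arbitrary scale of the normalised signal. Genes known from other tissues were measured too: 5 of 6 pancreas, 1 of 1 fat, 1 of 4 muscle and 1 of 3 nervous tissue markers. Insulin 1 (Ins1) averaged 149, 146 and 171 units and leptin (Lep) 239, 373 and 349 on the deficient, supplemented and standard diets. Insulin 2 (Ins2) averaged 106, 210 and 163 units in the same order. Whether such signals exceed background was not tested. One of 2 measures of RNA quality differed with diet at an adjusted p under 0.05. The Gapdh controls of the array read both ends of that transcript, and the 3′/5′ ratio of their signals is larger in broken or partly copied RNA. Its log2 averaged 1.84 ± 0.65 for the 4 deficient, 0.71 ± 0.49 for the 5 supplemented and 1.64 ± 0.61 for the 5 standard arrays (mean ± SD). This ratio differed by -0.93 in supplemented against standard and by 1.13 in deficient against supplemented (exact two-sided permutation test, p = 0.0159 each, adjusted p = 0.0476 each over 6 comparisons), and by 0.21 in deficient against standard (exact permutation p = 0.595). The Gapdh ranges still overlapped at their ends, at -0.12 to 1.1246 for supplemented, 1.04 to 2.65 for standard and 1.1234 to 2.68 for deficient. The same ratio of the beta-actin controls also overlapped between diets. It differed by -0.56 in supplemented against standard (exact permutation p = 0.103, adjusted p = 0.155). In deficient against supplemented it differed by 0.89 (exact permutation p = 0.0476, adjusted p = 0.0952). Supplemented array 5 stood apart, with the lowest Gapdh ratio (-0.12) and a mean rank correlation with the other arrays of 0.910 against 0.937 to 0.948 for the others. Deficient array 13 and standard array 10 had the highest Gapdh ratios, 2.68 and 2.65. In bulk tissue fewer cells of a type and less RNA per cell cannot be told apart.

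Of the 70 genes, 49 had at least 1 probe set whose mean signal passed a filter on dim values at 14.3 units, 75 probe sets in all. Of these genes 45 had a mean above the filter on every diet, whereas Mapk12 on the standard, Mapk4 and Jak2 on the deficient and Camkk1 on the supplemented diet had means below it. Each of the 49 was represented by its brightest probe set, and differences are log2 differences of quantile-normalised signals from 1 limma model of the 3 diets, with a Benjamini-Hochberg adjusted p under 0.05 over all 5133 probe sets that passed as the threshold for a call. Deficient against standard gave 0 called member genes (0.00% of all 3073 genes that passed were called), 1 at an unadjusted p under 0.05 (2.04% of members, 3.19% of all genes) and 28 higher (52.8% of all genes) against 21 lower. The median member difference was 0.05, beside 0.01 over all genes, and the members ran from -0.70 (Mapk4) to 1.46 (Jak3). On arrays centred on their medians instead of quantile-normalised, 36 of 48 members were higher on the deficient diet, beside 61.3% of all genes. For 0 members did the arrays of these diets separate without overlap (1.76% of all genes).

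Supplemented against standard likewise gave 0 called members (0.00% of all genes) with limma, 5 at an unadjusted p under 0.05 (10.2% of members, 8.14% of all genes), and 23 higher (45.1% of all genes) against 26 lower. The median was -0.03, the same to 2 decimals as over all genes, and the range ran from -0.83 (Pik3c3) to 1.13 (Jak1). Prkaca lay lower and Csnk1d higher on all supplemented arrays than on any standard array, 2 of 49 members beside 1.89% of all genes. Deficient against supplemented gave 0 called members with limma beside 1 called gene in all (0.0325%), 6 at an unadjusted p under 0.05 (12.2% of members, 12.3% of all genes) and 25 higher (56.3% of all genes) against 24 lower, with a median of 0.03 (0.05 over all genes). On median-centred arrays 34 of 48 members were higher in this comparison, beside 69.8% of all genes. Map2k2 was the 1 member without overlap there (4.78% of all genes). A moderated F-test for any difference among the diets gave 0 called members (0.0325% of all genes) and 5 at an unadjusted p under 0.05 (8.14% of all genes). The comparisons share arrays, so a gene that reads apart on 1 diet can appear in 2 of them.

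**Figure D1:**
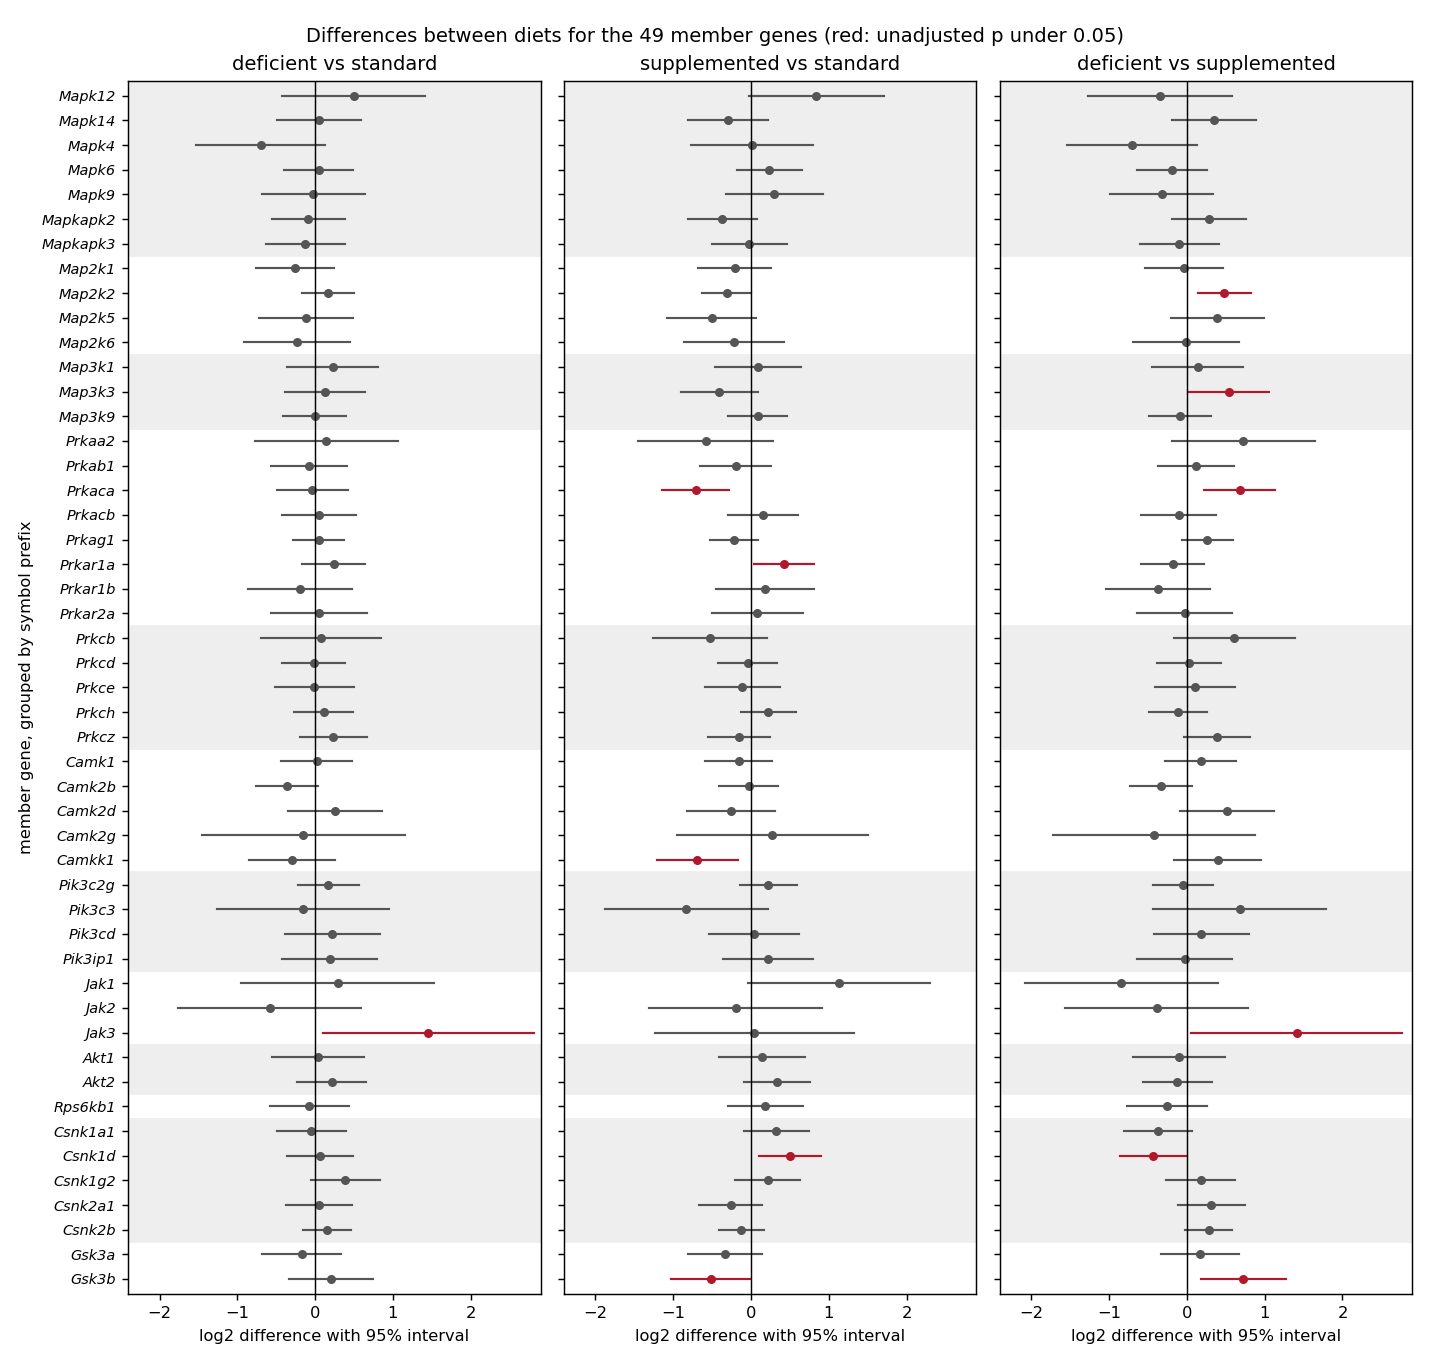
The log2 difference of each of the 49 member genes (point) with its 95% interval (line) is drawn for the 3 comparisons, with genes grouped by symbol prefix on shaded bands and red for an unadjusted p under 0.05. Red marks 1, 5 and 6 genes from the left to the right panel, and Jak3 has the widest intervals.

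The intervals show what these arrays could resolve. In deficient against standard the 95% interval of 41 of 49 members lay within a 2-fold difference in either direction, and that of 18 within 1.5-fold. The corresponding numbers were 37 and 8 for supplemented against standard, and 35 and 7 for deficient against supplemented. Csnk2b, the regulatory subunit of casein kinase 2, was the most closely bounded, with a half-width of 0.30 on the log2 scale in deficient against standard. The lymphoid Janus kinase Jak3 was the least closely bounded, with a half-width of 1.36. Within diets the SD of the members had a median of 0.35 on the log2 scale, beside 0.37 over all genes, and ran from 0.16 (Prkag1, a gamma subunit of AMP-activated kinase) to 1.06 (Jak3).

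Protein kinase A held the member with the smallest p against the standard diet. Prkaca encodes the alpha catalytic subunit, and Prkar1a the type I alpha regulatory subunit that holds it inactive until cyclic AMP binds. Their promoters are shown because the differences of these 2 transcripts had opposite signs in supplemented against standard, neither of them called. The other catalytic transcript, Prkacb, was on the higher side, as Prkar1a was. The 250 bases before each start site are from RefSeq on rat build GRCr8, Prkaca from chr19:41083190-41083439 on the minus strand and Prkar1a from chr10:95120287-95120536 on the plus strand, with each GC box (GGGCGG, or CCGCCC on the other strand) in capitals.
Prkaca: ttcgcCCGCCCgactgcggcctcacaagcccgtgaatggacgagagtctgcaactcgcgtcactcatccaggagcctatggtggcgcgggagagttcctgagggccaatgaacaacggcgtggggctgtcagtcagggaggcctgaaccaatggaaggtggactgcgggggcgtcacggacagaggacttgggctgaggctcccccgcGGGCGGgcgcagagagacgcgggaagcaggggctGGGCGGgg
Prkar1a: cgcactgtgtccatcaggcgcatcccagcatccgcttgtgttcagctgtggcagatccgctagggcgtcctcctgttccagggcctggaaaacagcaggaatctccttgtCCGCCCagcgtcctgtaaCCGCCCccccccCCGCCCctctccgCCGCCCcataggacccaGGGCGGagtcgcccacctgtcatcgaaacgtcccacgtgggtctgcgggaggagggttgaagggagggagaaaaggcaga
Prkaca has 3 GC boxes, 2 CCAAT boxes (CCAAT, searched on both strands) and 67.6% G and C. Prkar1a has 5 GC boxes, 0 CCAAT boxes and 65.2% G and C. Of the 49 genes 40 matched a promoter in the table, and 27 of these held a GC box (67.5%, beside 30.5% of all 33469 promoters of that length), 9 a CCAAT box (22.5%, beside 34.0%) and 0 the cyclic AMP response element TGACGTCA (beside 1.59%). Those promoters are not limited to genes on the array or above the filter, so the shares are of unlike sets.

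Prkaca read 140.2, 134, 155 and 93.5 units on the deficient arrays, 91.0, 85.9, 105, 83.1 and 48.8 on the supplemented arrays, and 122, 142, 129, 131 and 134 on the standard arrays. All 5 supplemented arrays lay below all 5 standard arrays, while 1 of 4 deficient arrays fell within the supplemented range. Supplemented minus standard was -0.71 ± 0.20 (SE; 95% interval -1.15 to -0.28), or 1.64-fold lower. Its p was 0.0032 before adjustment, and the limma adjusted p = 0.474. Deficient minus supplemented was 0.68 ± 0.22 (limma adjusted p = 0.264), and deficient minus standard was -0.03 ± 0.22 (limma adjusted p = 0.999). With the Gapdh ratio as a covariate the supplemented minus standard and deficient minus supplemented values were -0.40 and 0.30. A second, dimmer Prkaca probe set overlapped between all diets, with differences of -0.28 and -0.06 in those comparisons.

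Prkar1a read 203, 277, 209 and 258 units on the deficient arrays, 301, 221, 268, 222 and 341 on the supplemented arrays, and 237, 156, 178, 236 and 199 on the standard arrays. The supplemented arrays reached highest and the standard arrays lowest, and the ranges overlapped. The supplemented minus standard difference was 0.43 ± 0.18 (SE; unadjusted p of 0.032, limma adjusted p = 0.517), and 0.21 with the Gapdh ratio as a covariate. Deficient minus supplemented was -0.18 ± 0.19, and -0.096 without supplemented array 5. The second catalytic subunit, Prkacb, differed by 0.16, and the other regulatory subunits Prkar1b and Prkar2a by 0.18 and 0.08 in supplemented against standard, none at an unadjusted p under 0.05.

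AMP-activated kinase is a trimer, and 1 member of each subunit type passed the filter: the catalytic Prkaa2, the beta scaffold Prkab1 and the nucleotide-sensing gamma subunit Prkag1. In supplemented against standard the differences were -0.58 ± 0.41 (SE) for Prkaa2, -0.20 ± 0.22 for Prkab1 and -0.22 ± 0.14 for Prkag1. All had an unadjusted p above 0.05 in each comparison. Prkaa2 spanned 48.2 to 149 units on the deficient, 26.1 to 99.9 on the supplemented and 34.3 to 133 on the standard diet, so its groups overlapped widely.

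**Figure D2:**
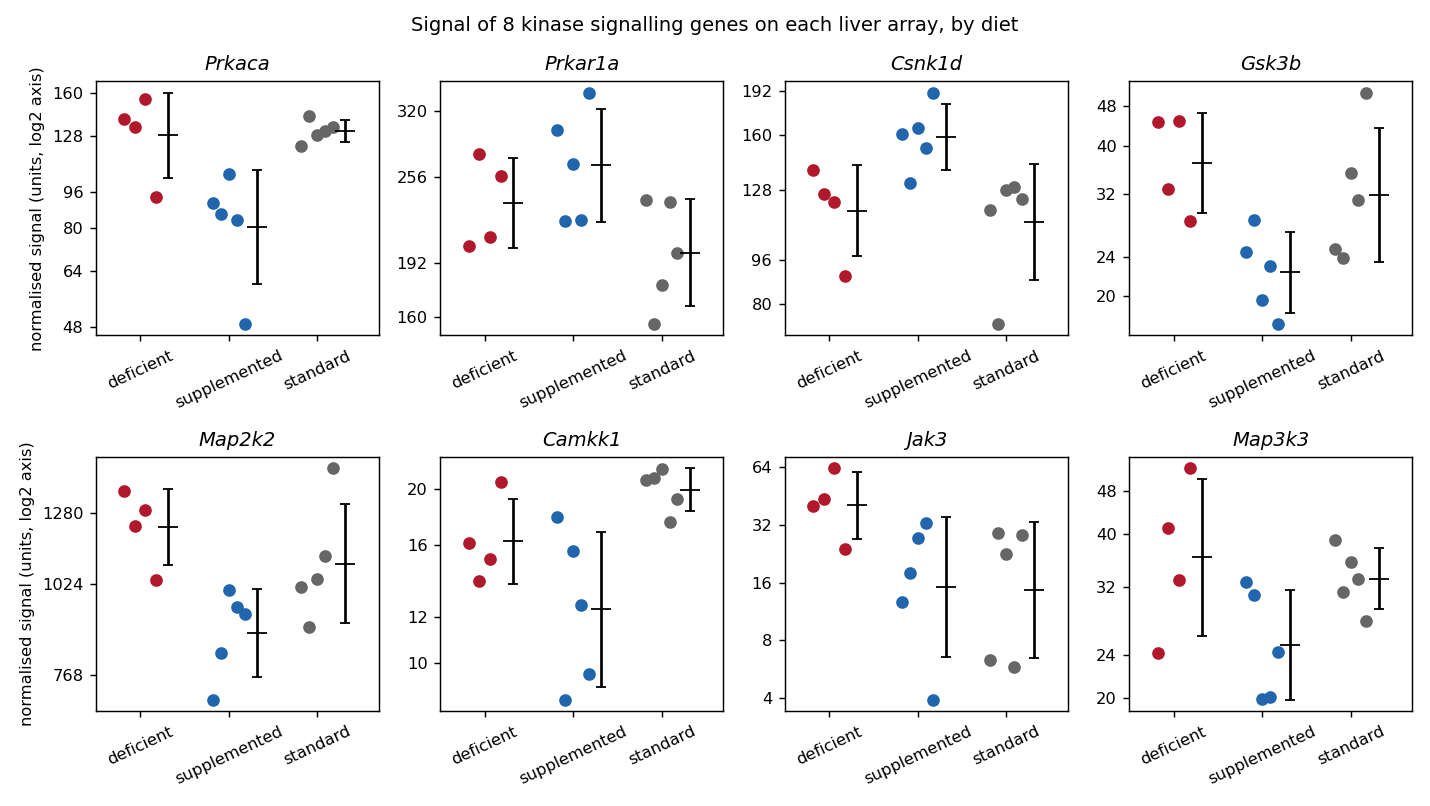
Normalised signal (units, log2 axis) on each of the 14 arrays (points) is drawn by diet for the 8 member genes with an unadjusted p under 0.05 in at least 1 comparison; the bar beside each group is the mean of the log2 values ± SD. Prkaca and Gsk3b read lowest and Csnk1d and Prkar1a highest on the supplemented arrays, and Jak3 read highest on the deficient arrays.

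Glycogen synthase kinase 3 restrains glycogen synthesis until insulin signalling switches it off. Its beta form, Gsk3b, read 44.7, 32.7, 44.9 and 28.3 units on the deficient arrays, 24.5, 28.4, 19.7, 22.9 and 17.6 on the supplemented arrays, and 24.8, 23.8, 35.2, 31.2 and 51.1 on the standard arrays. The highest supplemented array touched the lowest deficient array. Deficient minus supplemented was 0.73 ± 0.25 (SE), or 1.66-fold higher, with an unadjusted p of 0.012 and limma adjusted p = 0.302. In supplemented against standard the difference was -0.52 ± 0.24 (unadjusted p of 0.047, limma adjusted p = 0.547). With the Gapdh ratio as a covariate Gsk3b stood at 0.16 in deficient against supplemented and at -0.06 in supplemented against standard. Its second probe set gave 0.34 and -0.24 in the same 2 comparisons, in the same directions as the first. The alpha form, Gsk3a, read 72.4 to 161 units on the deficient, 76.2 to 135 on the supplemented and 117 to 156 on the standard diet, and supplemented minus standard was -0.34 ± 0.22.

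The casein kinase 1 family acts on substrates of the Wnt pathway and of the circadian clock. The delta form, Csnk1d, read 139, 126, 121 and 89.8 units on the deficient arrays, 161, 131, 165, 152 and 191 on the supplemented arrays, and 118, 73.9, 128, 129 and 123 on the standard arrays. Each supplemented array exceeded each standard array, by a narrow margin between 131 and 129 units. Csnk1d stood at 0.50 ± 0.19 in supplemented against standard (SE; unadjusted p of 0.018, limma adjusted p = 0.492), and at -0.43 ± 0.20 in deficient against supplemented (unadjusted p of 0.047, limma adjusted p = 0.379). The Gapdh covariate left both at about the same size, 0.54 and -0.49. With 1 array left out they ran from 0.35 to 0.57 and from -0.51 to -0.30. The second Csnk1d probe set gave 0.10 and 0.01, so its supplemented arrays (46.6 to 102 units) overlapped the others.

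Another casein kinase 1, Csnk1g2, had the third smallest p of the members in deficient against standard. It read 61.4, 83.2, 73.4 and 105 units on the deficient arrays and 49.8, 55.6, 67.3, 71.0 and 60.6 on the standard arrays, with overlapping ranges. The difference was 0.39 ± 0.21 (SE; unadjusted p of 0.079), and 0.25 without deficient array 14. Casein kinase 2, an always-active kinase, was measured through its catalytic subunit Csnk2a1 and its regulatory subunit Csnk2b. Csnk2b read 712 to 871 units on the deficient, 552 to 769 on the supplemented and 573 to 822 on the standard diet, and deficient minus supplemented was 0.28 ± 0.14.

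MAP kinase cascades run in 3 tiers, in which a Map3k phosphorylates a Map2k, which phosphorylates a MAP kinase. In the upper tier Map3k3, also called MEKK3, read 24.2, 41.1, 32.9 and 52.8 units on the deficient arrays, 32.6, 30.8, 19.9, 20.1 and 24.3 on the supplemented arrays, and 39.0, 31.3, 35.6, 33.1 and 27.7 on the standard arrays. Its deficient arrays were the most spread and covered the standard range. Deficient minus supplemented was 0.54 ± 0.24 (SE; unadjusted p of 0.044, limma adjusted p = 0.373), 0.80 with the Gapdh covariate and 0.35 without deficient array 14. Map3k1, the brightest Map3k member, read 213 to 376 units on the deficient, 151 to 419 on the supplemented and 177 to 255 on the standard diet.

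In the middle tier Map2k2, or MEK2, which activates the ERK kinases, read 1369, 1226, 1291 and 1035 units on the deficient arrays, 711, 822, 1003, 950.3 and 930.2 on the supplemented arrays, and 1013, 893, 1038, 1117 and 1472 on the standard arrays. All deficient arrays lay above all supplemented arrays, and the standard arrays spread across both. Deficient minus supplemented was 0.48 ± 0.16 (SE), or 1.40-fold higher, with an unadjusted p of 0.0086 and limma adjusted p = 0.278. The Gapdh covariate gave 0.26. Its other 2 probe sets gave 0.26 and 0.00 in that comparison. Against the standard diet the supplemented difference was -0.31 ± 0.15 (-0.21 without standard array 10), and all 4 Map2k genes (Map2k1, Map2k2, Map2k5 and Map2k6) were on the lower side there by their brightest probe sets, between -0.51 and -0.21. The other probe sets of Map2k1 stood at 0.25 and 0.49, and that of Map2k5 at 0.00.

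The lower tier held no gene at an unadjusted p under 0.05 by its brightest probe set. Mapk14, the p38 alpha stress kinase, read 409, 383, 779 and 459 units on the deficient arrays, 262, 349, 493, 366 and 489 on the supplemented arrays, and 452, 460.2, 496, 334 and 653 on the standard arrays, with full overlap. Mapk4, an atypical MAP kinase, had the lowest difference of all members in deficient against standard, -0.70 ± 0.39 (SE; unadjusted p of 0.094), and -0.38 without deficient array 11. Mapk12, the p38 gamma kinase, read 11.3 to 19.7 units on the deficient, 16.6 to 26.7 on the supplemented and 4.06 to 23.9 on the standard diet, and supplemented minus standard was 0.84 ± 0.41 (unadjusted p of 0.057), and 0.48 without standard array 8. Of the p38 substrates, Mapkapk2 stood at -0.37 and Mapkapk3 at -0.02 in that comparison.

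Dimmer probe sets of the same MAP kinases read otherwise. Of the 75 member probe sets 9 had an unadjusted p under 0.05 in supplemented against standard (8.88% of all probe sets), and the 4 that did not represent their gene were all of Mapk9, Mapk6 and Mapk14 and all higher. Mapk9, the JNK2 stress kinase, had 2 such probe sets. The dimmest read 5.45, 14.3, 13.2 and 32.8 units on the deficient arrays, 46.6, 29.4, 39.0, 37.5 and 27.0 on the supplemented arrays, and 14.8, 20.5, 5.51, 31.1 and 4.59 on the standard arrays. Its supplemented arrays were on the whole the highest, with 1 deficient and 1 standard array among them. It stood at 1.57 ± 0.53 in supplemented against standard and the next at 1.23 ± 0.46 (SE; limma adjusted p = 0.492 each), whereas the brightest Mapk9 probe set gave 0.30 ± 0.29. The dimmest averaged 13.5 units on the deficient, 35.2 on the supplemented and 11.9 on the standard diet, so it passed the filter at 14.3 units only through the diet on which it read highest, and had to differ. The next averaged 12.9, 36.6 and 15.6 units on those diets.

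For Mapk6, the atypical kinase ERK3, the dimmer probe set read 35.1, 37.4, 54.6 and 67.9 units on the deficient arrays, 71.2, 70.7, 140.1, 80.4 and 76.3 on the supplemented arrays, and 41.9, 77.8, 24.9, 51.5 and 36.7 on the standard arrays. All supplemented arrays lay above all deficient arrays, and 1 standard array reached into the supplemented range. This probe set stood at 0.96 ± 0.30 in supplemented against standard (SE; limma adjusted p = 0.474), against 0.24 ± 0.20 by the brighter probe set. With the Gapdh covariate the dim probe sets of Mapk9 gave 0.77 and 0.43, and that of Mapk6 gave 0.78. The 5 Mapk14 probe sets ran from -0.30 for the brightest to 0.60 for the dimmest in the same comparison, and the dimmest stood at 0.40 without supplemented array 3. Over the 17 genes with several measured probe sets, all probe sets of a gene had the same sign in 9 for deficient against standard, 11 for supplemented against standard and 9 for deficient against supplemented. In deficient against supplemented 11 member probe sets had an unadjusted p under 0.05 (13.0% of all probe sets), among them the dim ones of Mapk9, Mapk6 and Mapk14 and 1 of Map2k1, or MEK1, at -0.67.

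**Figure D3:**
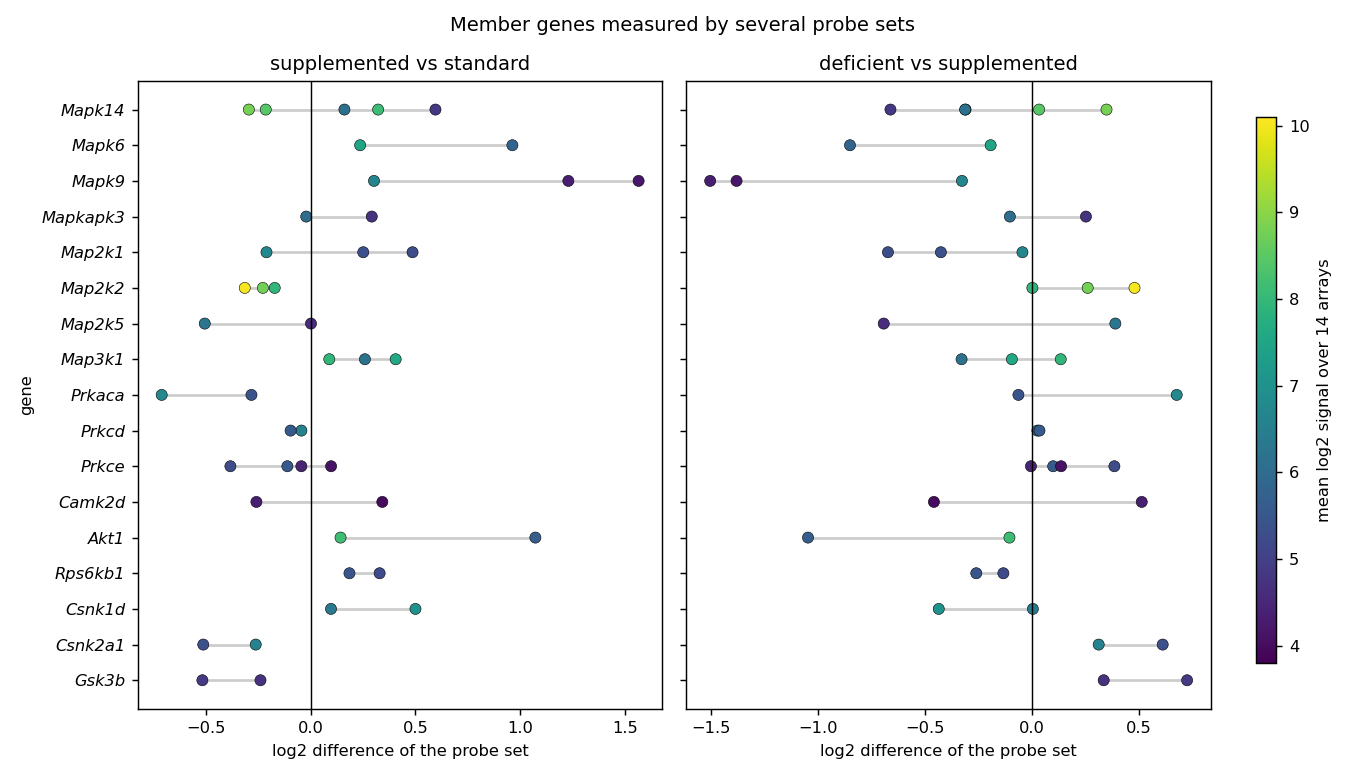
The log2 difference of every measured probe set (point) is drawn for the 17 member genes with more than 1, with colour giving the mean log2 signal over the 14 arrays and a grey line joining the probe sets of a gene. In supplemented against standard and in deficient against supplemented, the darker, dimmer points of Mapk9, Mapk6 and Akt1 lie farther from 0 than their brighter points. For Prkaca, Csnk1d, Gsk3b and Map2k2 the brightest point lies farthest from 0 in both.

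Calcium and calmodulin activate the Camk family. Camkk1, a kinase that activates other family members, read 16.1, 13.9, 15.2 and 20.6 units on the deficient arrays, 17.9, 8.64, 15.6, 12.6 and 9.57 on the supplemented arrays, and 20.8, 20.9, 21.7, 17.5 and 19.3 on the standard arrays. Only the highest supplemented array reached the standard range. Supplemented minus standard was -0.69 ± 0.25 (SE; unadjusted p of 0.013, limma adjusted p = 0.492) and was -0.70 with the Gapdh covariate. These signals lie close to the filter at 14.3 units.

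Camk2b, a subunit of calcium/calmodulin kinase II, read 47.3, 64.1, 41.6 and 54.1 units on the deficient arrays, 57.9, 59.0, 57.4, 63.7 and 88.8 on the supplemented arrays, and 76.4, 71.2, 56.0, 69.6 and 58.2 on the standard arrays. Deficient minus standard was -0.36 ± 0.19 (SE; unadjusted p of 0.069), with the highest deficient array inside the standard range. Camk1 was the brightest of the family, at 86.2 to 123 units on the deficient, 58.0 to 131 on the supplemented and 89.1 to 121 on the standard diet.

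Protein kinase C isoforms respond to diacylglycerol, apart from the atypical zeta form. Prkcb, Prkcd, Prkce, Prkch and Prkcz passed the filter, and none had an unadjusted p under 0.05 in any comparison. The brightest, Prkcd, read 82.1 to 124 units on the deficient, 74.4 to 110.0 on the supplemented and 81.4 to 130.3 on the standard diet. Its differences were -0.02, -0.04 and 0.03 in deficient against standard, supplemented against standard and deficient against supplemented, with SEs of 0.19, 0.18 and 0.19. Prkcz read 58.4 to 85.5 units on the deficient and 43.4 to 59.1 on the supplemented diet, and deficient minus supplemented was 0.39 ± 0.20.

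Of the insulin relay, no Pik3, Akt or Rps6k gene that passed the filter had an unadjusted p under 0.05. The PI3-kinase subunits Pik3cb, Pik3r1, Pik3r2 and Pik3r3 lay below the filter and are not covered by this. Gsk3b, of the same relay, is given above. The brightest catalytic Pik3 member, Pik3cd, known chiefly from leukocytes, read 50.8 to 112 units on the deficient, 47.6 to 105 on the supplemented and 51.9 to 94.6 on the standard diet. Pik3c3, which makes the lipid of autophagy and endosomes, had the lowest difference of the members in supplemented against standard, -0.83 ± 0.49 (SE). That value rested on supplemented array 5, at the floor of 3.93 units, while the other supplemented arrays read 29.0 to 33.0 units. Without that array Pik3c3 stood at -0.24, and with the Gapdh covariate at -0.02. Akt1 differed by 0.04, 0.14 and -0.10 across the 3 comparisons in the order above, by its brightest probe set. Its dimmer probe set gave 0.03, 1.07 and -1.04, with SEs of 0.71, 0.67 and 0.71. Akt2 differed by 0.21, 0.33 and -0.12. Rps6kb1, the S6 kinase downstream of mTOR, differed by -0.07, 0.19 and -0.26.

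Of the Janus kinases, Jak3 gave the largest member difference in deficient against standard. It read 39.96, 43.6, 63.0 and 24.1 units on the deficient arrays, 12.6, 17.8, 27.4, 32.6 and 3.93 on the supplemented arrays, and 6.33, 29.1, 22.6, 5.78 and 28.3 on the standard arrays. On the deficient diet 3 of 4 arrays lay above all others. Deficient minus standard was 1.46 ± 0.64 (SE), or 2.75-fold higher, with an unadjusted p of 0.037 and limma adjusted p = 0.999. With the Gapdh covariate this difference was 1.19 (limma unadjusted p of 0.028) and was not called. Deficient against supplemented, the difference was 1.41 ± 0.64 (limma adjusted p = 0.373), -0.06 with the Gapdh covariate, 0.94 without supplemented array 5 and 0.71 without arrays 5, 10 and 13. Its supplemented minus standard difference was 0.04 ± 0.60 and changed sign under 6 of the alternatives tried. That difference was 1.25 with the Gapdh covariate (unadjusted p of 0.045) and 0.77 without arrays 5, 10 and 13.

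Jak3 is known from lymphocytes. Of the 11 lymphocyte and pan-leukocyte markers 9 were on the array and 5 passed the filter (Cd4, Cd8b, Cd5, Ptprc and Cd79b), with Cd3d, Cd3g, Cd8a and Cd2 too dim. The summed signal of all 9 on the array was 128 to 165 units on the deficient, 132 to 171 on the supplemented and 125 to 195 on the standard diet. Of the 5 that passed, 0 had an unadjusted p under 0.05 in any comparison. The part of these cells in the Jak3 values was not tested. Jak1, used by most cytokine receptors, read 21.4, 8.76, 14.7 and 53.0 units on the deficient arrays, 58.5, 31.4, 37.2, 26.1 and 29.9 on the supplemented arrays, and 30.9, 27.1, 13.6, 23.4 and 3.93 on the standard arrays. Its supplemented minus standard difference was 1.13 ± 0.55 (SE; unadjusted p of 0.057), 0.18 with the Gapdh covariate and 0.63 without standard array 10. Jak2, the growth hormone receptor's kinase, differed by -0.59, -0.20 and -0.39 in the 3 comparisons, and each 95% interval spanned 0.

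Without the 3 arrays that stood apart (supplemented array 5, standard array 10 and deficient array 13), the named members kept their directions. In supplemented against standard Prkaca then stood at -0.52, Gsk3b at -0.26, Camkk1 at -0.61, Csnk1d at 0.47 and Prkar1a at 0.34. In deficient against supplemented Prkaca stood at 0.41, Gsk3b at 0.54, Map2k2 at 0.47, Map3k3 at 0.57 and Csnk1d at -0.38. Jak3, Csnk1g2 and Camk2b stood at 1.48, 0.43 and -0.31 in deficient against standard. None of these differences was called with those arrays left out.

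**Figure D4:**
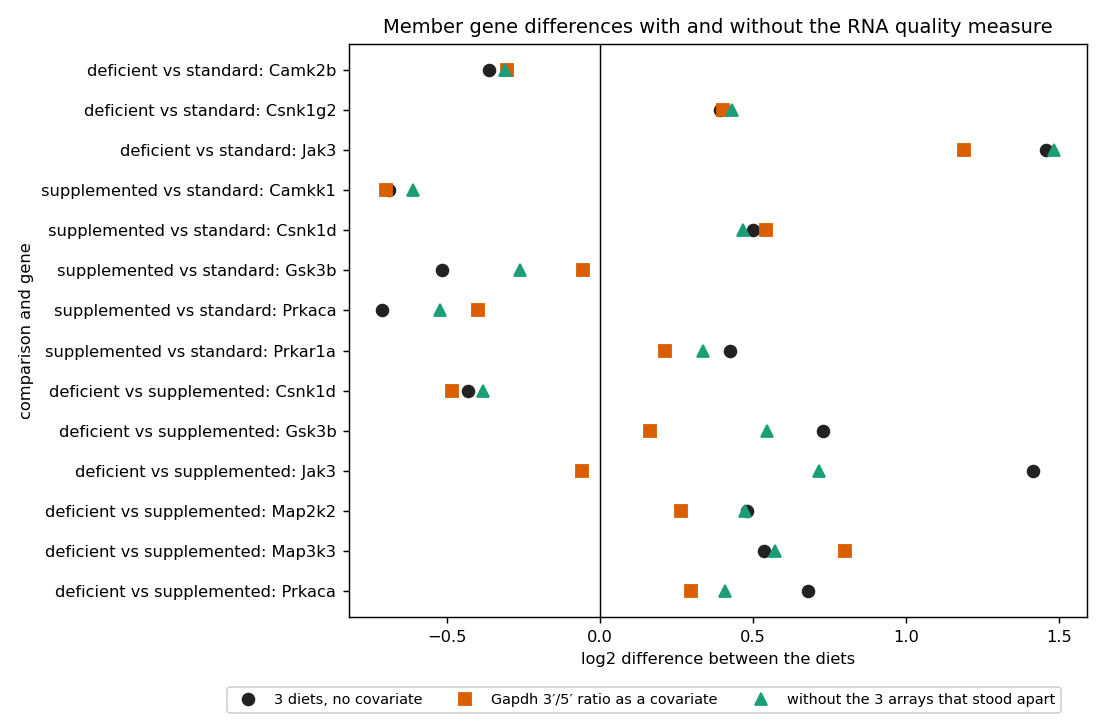
For each member gene named for its p in a comparison, the log2 difference between diets is drawn from the model of 3 diets (black circles), with the log2 Gapdh 3′/5′ ratio as a covariate (orange squares) and without supplemented array 5, standard array 10 and deficient array 13 (green triangles). Csnk1d and Camkk1 keep their size with the covariate, Gsk3b and Prkaca move towards 0, and Jak3 in deficient against supplemented passes to the other side of 0.

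The 21 genes below the filter, with 49 probe sets counting the dim ones of other members, were Camk1g, Camk2a, Camk2n1, Camk2n2, Camk4, Camkk2, Camkv, Csnk1g1, Map3k12, Map3k8, Mapk7, Mapk8, Mapk8ip1, Mapk8ip2, Pik3cb, Pik3r1, Pik3r2, Pik3r3, Prkaa1, Prkar2b and Prkca. Map3k8 and Prkca stood at the floor of 3.93 units on all 14 arrays, and 8 of the 21 stood there on 7 or more. Of the 21, 11 exceeded 14.3 units on at least 1 array. Without the filter Pik3r2, a regulatory subunit of PI3-kinase, was the only one of the 21 at an unadjusted p under 0.05, in deficient against standard at 1.06 (unadjusted p of 0.039, limma adjusted p = 1), with a mean of 7.88 units. No detection calls were used here, so whether such signals, or those that passed the filter, exceed background is unknown.

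Genes acting around these kinases were described from 4 lists. Of 33 measured receptors, adaptors, GTPases and cyclases, 0 were called in any comparison (0.00%, 0.00% and 0.0325% of all genes). At an unadjusted p under 0.05 there were 0 in deficient against standard, 3 in supplemented against standard (2 higher, 1 lower) and 4 in deficient against supplemented (3 higher, 1 lower), where 3.19%, 8.14% and 12.3% of all genes had such a p. Met, the receptor of hepatocyte growth factor, read 7.80 to 17.1 units on the deficient, 23.7 to 28.0 on the supplemented and 6.58 to 16.7 on the standard diet. Its means were 11.3 units on the deficient, 26.5 on the supplemented and 12.3 on the standard diet, so Met passed the filter only through the supplemented arrays, and had to differ. No supplemented array overlapped either other diet (1.89% of all genes in supplemented against standard, 4.78% in deficient against supplemented). Supplemented minus standard was 1.10 ± 0.30 (SE, limma adjusted p = 0.474), or 0.82 with the Gapdh covariate. Adcy6, an adenylyl cyclase that makes the cyclic AMP on which protein kinase A depends, read 52.4 to 96.8 units on the deficient and 28.8 to 61.4 on the supplemented diet (0.79 ± 0.24, limma adjusted p = 0.264), and 0.84 with the covariate. The platelet-derived growth factor receptor Pdgfra stood at -0.62 and the mTOR-activating GTPase Rheb at 0.51 in supplemented against standard, and the GTPase Cdc42 at 0.38 in deficient against supplemented. With the Gapdh covariate these became -0.17, 0.34 and 0.07.

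Among 25 other signalling kinases, 0 were called, and 0, 4 and 3 had an unadjusted p under 0.05 in deficient against standard, supplemented against standard and deficient against supplemented (3.19%, 8.14% and 12.3% of all genes). The Src family members Lyn and Fyn pointed in opposite directions. Lyn, known from leukocytes, read 13.6 to 48.8 units on the deficient, 50.9 to 63.1 on the supplemented and 5.77 to 42.2 on the standard diet. Its supplemented arrays overlapped neither other diet. Such a gap was seen for 1.89% of all genes in supplemented against standard and 4.78% in deficient against supplemented. In supplemented against standard the differences were 1.19 ± 0.48 (SE; limma adjusted p = 0.510) for Lyn and -0.52 ± 0.22 for Fyn, and deficient minus supplemented was -1.22 ± 0.51 for Lyn and 0.66 ± 0.23 for Fyn. The Gapdh covariate gave 0.93 and -0.90 for Lyn, and -0.19 and 0.25 for Fyn, in these comparisons. Without standard array 6 the supplemented minus standard value of Lyn was 0.66. The 6 Kupffer cell and macrophage markers on the array summed to 721 to 873 units on the deficient, 588 to 1165 on the supplemented and 569 to 854 on the standard diet. The 5 that passed the filter were all on the higher side in supplemented against standard, 1 at an unadjusted p under 0.05. The part of those cells in the Lyn values was not tested. The phosphoinositide kinase Pi4kb stood at -0.50 in supplemented against standard and at 0.67 in deficient against supplemented, or -0.16 and 0.26 with the covariate.

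Of 26 brakes and partners of kinases, 0 were called, and 0, 3 and 2 had an unadjusted p under 0.05 in the same order (3.19%, 8.14% and 12.3% of all genes). Cdc37, which loads kinases onto the chaperone Hsp90, read 911 to 1298 units on the deficient, 360.2 to 1055 on the supplemented and 875 to 1494 on the standard diet. Cdc37 stood at -0.65 ± 0.24 in supplemented against standard (SE; limma adjusted p = 0.492), -0.12 with the Gapdh covariate and -0.41 without supplemented array 5. The Akt-binding pseudokinase Trib3 stood at -0.70 and the cytokine signal suppressor Cish at 1.30 there, and the 14-3-3 protein Ywhag at -0.48 in deficient against supplemented. With the covariate these were -0.60, 0.91 and -0.48.

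Of 25 substrates and transcriptional targets, 0 were called, and 1, 2 and 2 had an unadjusted p under 0.05 (3.19%, 8.14% and 12.3% of all genes). Acetyl-CoA carboxylase (Acaca), the fatty acid synthesis enzyme that AMP-activated kinase switches off, read 15.6 to 25.4 units on the deficient, 19.8 to 47.6 on the supplemented and 12.4 to 27.8 on the standard diet (supplemented minus standard 0.72 ± 0.30, limma adjusted p = 0.515). Eif2b5, part of a translation factor that GSK3 phosphorylates, stood at -0.84 ± 0.38 (SE) in supplemented against standard, and at -0.41 without supplemented array 5. The transcription factor Myc stood at 0.63 ± 0.26 in deficient against standard. Bad, a cell death protein held in check by Akt, stood at 0.73 ± 0.25 in deficient against supplemented (limma adjusted p = 0.286). With the Gapdh covariate Acaca stood at 0.38, Eif2b5 at -0.22, Myc at 0.58 and Bad at 0.26. The medians of the 4 lists in supplemented against standard were -0.05, -0.11, 0.02 and -0.18, in the order described, beside -0.03 over all genes.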

How the data were processed

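The deposited values are intensity values, linear probe set signals of 8799 probe sets on 14 Affymetrix arrays, and every column was used. Neither the software nor detection calls were stated. Each array had a mean of 150.0 units after trimming 2% at both ends, as after global scaling, but array medians differed up to 1.91 times. The 59 control probe sets were left out, log2 signals were quantile-normalised, signals under a floor at the pooled 20th percentile (3.93 units) were raised to that floor, and probe sets with a mean above the pooled 40th percentile (14.3 units) were kept, leaving 5133.

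Differences came from limma 3.58.1 in R 4.3.3 (lmFit, eBayes with trend), 1 model of 3 diets, two-sided, with Benjamini-Hochberg adjustment over all 5133. The model fit was tried on simulated independent normal values with seeded log2 changes of 1 to 3, larger than nearly all member differences. The simulation held no outlying array, no difference in RNA quality and no correlation between probe sets, so it does not test the fit under those. Floored log2 values understate differences of dim probe sets. Gene symbols came from the platform annotation; all 70 are current in the RefSeq GRCr8 table. The members and lists were chosen with earlier results of these data known. Named members are those at an unadjusted p under 0.05 (at least the 3 smallest p per comparison), those without overlap, and the brightest gene of each prefix; listed pathway genes are named at an unadjusted p under 0.05, at most 3 per list and comparison. Other members named at the ends of ranges, and single probe sets, were chosen after their values were seen. Alternatives covered scaling, floor, filter, variance model, array weights, covariates, the arrays fitted and the probe set rule.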

Additional observations from a re-analysis of the deposited data

Results flagged for a closer look

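Among 60 groups of 4 or 5 arrays examined for the named members, 2 held an array far from the rest, where chance alone flags about 1 in 20 groups. For Camk2b, supplemented array 5 read 88.8 units, while the other supplemented arrays read 57.4 to 63.7. For Csnk1d, standard array 7 read 73.85 units, the lowest, while the other standard arrays read 118 to 129.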

How the results depend on the processing

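No member gene was called in any comparison under any of the 25 alternatives refitted for each. The 58 single gene or probe set differences gave 1428 values under the alternatives, of which 1413 kept their direction and 0 passed the threshold; the lowest limma adjusted p was 0.0804. Of the 15 that turned, Jak3 in deficient against supplemented was -0.061 with the Gapdh covariate, and Jak3 in supplemented against standard was -0.036 with a floor at the 10th percentile and between -0.29 and 0.53 with 1 array left out; with the Gapdh covariate it was higher, at 1.25. Prkaca in deficient against standard was 0.00076 on values as deposited, 0.072 on median-centred arrays, 0.013 with array weights and -0.12 to 0.12 with 1 array left out. Csnk1d there was -0.084 to 0.20 with 1 array left out. Prkar1a in deficient against supplemented was 0.048 on median-centred arrays and 0.075 with the Gapdh covariate. The cause was not tested for any of these.

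The number of members at an unadjusted p under 0.05 moved by over 1.5 times from 1, 5 and 6 (deficient against standard, supplemented against standard, deficient against supplemented) as follows. It became 2 in the first without a filter, with array weights or without arrays 5, 10 and 13. A filter at the 60th percentile, which drops Jak3, Gsk3b, Map3k3 and Camkk1, gave 0, 3 and 3. Leaving out arrays 5, 10 and 13 gave 2 in the second comparison. The Gapdh covariate gave 1 and the beta-actin covariate 3 in the third. With 1 array left out it ran from 0 (standard arrays 6 and 9, deficient array 13) to 2 (supplemented array 5) in the first, from 3 (supplemented arrays 1 and 5, standard array 8) to 8 (standard array 6) in the second, and from 3 (supplemented array 5, deficient array 13) to 9 (supplemented array 2) in the third.

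Scaling shifted all genes. Median-centring placed the median of all genes at -0.13 in supplemented against standard and 0.21 in deficient against supplemented, with the members at -0.088 and 0.19, and at 0.13 in deficient against standard. On values as deposited the member medians were 0.079 and -0.049 in supplemented against standard and deficient against supplemented. The mean over all probe sets of a gene, applied to differences and medians but not refitted for counts, gave 0.041 in supplemented against standard. With 1 array left out the medians were 0.0023 to 0.074, -0.094 to -0.016 and 0.022 to 0.14. No paired analysis was possible because array numbers run on across the diets and none is shared.

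The labels' lack of animal identifiers, the missing detection calls and 4 or 5 arrays a diet limit all values. Dim members such as Jak3, Jak1, Mapk4 and Camkk1 have signals near the filter on some arrays. The Gapdh ratio averaged lower on the supplemented than on the other diets. Because the ratio ran with diet, the covariate fit cannot tell its part from that of the diet. Its part in the differences was not tested.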
